A study of Mus musculus with 11 samples.

Results

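The open chromatin around 6 genes is described, namely Sh3tc2, Sh3rf3, Tmem94, Hs3st3a1, Lrrc4c and Tns3. They were chosen by the difference of their promoter peaks between basal and luminal cells, so the promoter values that chose them are given as a description. The question asked of each locus was whether all of it was more open in basal cells or the promoter alone. Peaks were taken where they overlapped the gene body or lay within 50 kb of a transcription start site (TSS) of the gene, in build mm10. This gave 127 of the 153396 peaks with counts, of which 7 were promoter peaks (within 500 bp of a TSS of the gene), 4 were promoter peaks of another gene and 116 lay outside promoters. Sh3tc2 (chr18:61953075-62024402, plus strand) had 14 peaks, Sh3rf3 (chr10:58813359-59138916, plus) 26, Tmem94 (chr11:115765433-115799366, plus) 14, Hs3st3a1 (chr11:64435332-64522841, plus) 8, Lrrc4c (chr2:96318169-97631666, plus) 15 and Tns3 (chr11:8431652-8664535, minus) 50.

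ATAC-seq, in which a transposase cuts open chromatin, had been run on 11 libraries of mammary epithelium from 5-week-old female C57BL/6 mice carrying an E-cadherin-GFP reporter. The terminal end buds (TEBs), from which the pubertal ducts grow, were micro-dissected apart from the ducts behind them, and cells from pools of mice were sorted as CD24+CD29+ and negative for markers of blood and endothelial cells. A low GFP signal marked basal cells and a high one luminal cells in every group. There were 2 libraries of basal duct cells (replicates 1 and 3) and 3 of each of the other populations (basal TEB, luminal TEB and luminal duct cells), and a further basal duct sample that the study discarded is not analysed here.

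Basal cells of the mammary gland lie against the basement membrane, contract around the luminal cells and hold them to the matrix, while luminal cells line the lumen and make milk. A promoter peak marks the open stretch at a start site, and peaks inside introns or between genes often lie at enhancers. Tns3 encodes a tensin, which links integrins to actin at focal adhesions. Hs3st3a1 encodes a sulfotransferase that adds a late 3-O-sulfate to heparan sulfate, the sugar chain of syndecans and glypicans. Lrrc4c encodes netrin-G ligand, a leucine-rich surface protein that binds netrin-G at synapses. Sh3tc2 encodes an adaptor protein of the endosome that is known for its part in myelination by Schwann cells. Sh3rf3 encodes a ubiquitin ligase with SH3 domains that acts as a scaffold of JNK signalling, and Tmem94 encodes a multi-pass membrane protein.

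The promoter peaks of the members fell into start sites of unlike base composition, and 4 of the stretches upstream of a start site are printed for that contrast. Each is the 250 bases before the TSS, from the GRCm38 reference of RefSeq, 5′ to 3′ on the strand of the gene, with SP matches (GGGCGG, both strands) in capitals. Such a match was present in 59.2% of the 27352 stretches of this length before a TSS within 500 bp of a peak, and no other motif is marked. Of the Sh3rf3 stretch, 34 bases lie in an exon of another annotated gene. The GC content was 79.2% for Sh3rf3 and 69.6% for Tns3, against a median of 60.8% over all stretches. It was 44.4% at the internal start site of Tmem94, a value that 5.21% of all stretches did not exceed, and 47.6% at the internal start site of Lrrc4c.
Sh3rf3, chr10:58813109-58813358, plus strand: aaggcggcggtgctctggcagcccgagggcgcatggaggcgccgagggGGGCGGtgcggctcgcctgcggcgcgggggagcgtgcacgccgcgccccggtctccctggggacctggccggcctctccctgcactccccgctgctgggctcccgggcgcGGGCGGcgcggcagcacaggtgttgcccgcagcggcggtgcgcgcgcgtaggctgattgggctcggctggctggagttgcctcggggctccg
Tns3, chr11:8664536-8664785, minus strand: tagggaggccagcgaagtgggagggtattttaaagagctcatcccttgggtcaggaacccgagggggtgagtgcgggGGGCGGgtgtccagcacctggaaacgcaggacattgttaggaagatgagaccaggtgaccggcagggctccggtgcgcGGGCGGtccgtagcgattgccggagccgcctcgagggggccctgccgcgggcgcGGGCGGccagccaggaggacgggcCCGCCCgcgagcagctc
Tmem94, internal start site, chr11:115775506-115775755, plus strand: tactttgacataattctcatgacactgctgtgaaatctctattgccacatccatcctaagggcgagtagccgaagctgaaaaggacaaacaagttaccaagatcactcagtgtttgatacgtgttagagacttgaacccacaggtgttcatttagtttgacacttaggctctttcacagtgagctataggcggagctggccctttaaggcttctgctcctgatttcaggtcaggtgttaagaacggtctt
Lrrc4c, internal start site, chr2:97467407-97467656, plus strand: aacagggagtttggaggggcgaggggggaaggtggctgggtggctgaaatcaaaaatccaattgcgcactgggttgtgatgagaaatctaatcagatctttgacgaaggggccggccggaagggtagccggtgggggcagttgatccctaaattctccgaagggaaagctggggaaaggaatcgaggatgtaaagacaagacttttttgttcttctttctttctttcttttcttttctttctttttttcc

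Outside promoters the members held peaks of opposite direction, and the centres of 3 peaks higher in basal cells and 2 higher in luminal cells are printed for that contrast. Each is the central 201 bases of the peak on the plus strand of the GRCm38 reference of RefSeq. Capitals mark matches on either strand of TEAD (GGAATG), AP-1 (TGANTCA), RUNX (TGTGGT), GRHL (AACCGG), the E-box (CANNTG) and the p63/p53 half-site, none of which overlap each other in these windows. Over the 136766 peaks outside promoters of the series, 16.5% of such centres held a TEAD match, 23.6% AP-1, 17.2% RUNX, 2.5% GRHL, 70.1% an E-box and 8.45% a p63/p53 half-site. Distances in kb are from the upstream TSS along the strand of the gene. The Tns3 centre held an E-box, the basal Sh3rf3 centre an E-box and a p63/p53 half-site, and the Hs3st3a1 centre a TEAD match and an E-box. The luminal Sh3rf3 centre held a RUNX and an AP-1 match, and the luminal centre near Tmem94 held AP-1, E-box, GRHL and RUNX matches.
Tns3 +94.6 kb, basal, chr11:8569827-8570027: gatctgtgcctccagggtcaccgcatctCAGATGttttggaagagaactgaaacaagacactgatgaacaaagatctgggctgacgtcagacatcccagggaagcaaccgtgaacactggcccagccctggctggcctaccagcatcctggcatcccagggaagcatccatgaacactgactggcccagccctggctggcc
Sh3rf3 +108.6 kb, basal, chr10:58921821-58922021: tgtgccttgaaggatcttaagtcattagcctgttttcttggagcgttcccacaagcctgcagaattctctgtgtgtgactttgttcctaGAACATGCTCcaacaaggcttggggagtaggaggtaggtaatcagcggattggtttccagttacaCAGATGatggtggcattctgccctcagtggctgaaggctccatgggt
Hs3st3a1 +37.6 kb, basal, chr11:64472787-64472987: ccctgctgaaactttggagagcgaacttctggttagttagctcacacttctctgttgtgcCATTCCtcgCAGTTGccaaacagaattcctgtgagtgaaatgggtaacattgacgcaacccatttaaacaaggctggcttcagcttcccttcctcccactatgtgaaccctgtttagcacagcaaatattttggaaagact
Sh3rf3 +102.4 kb, luminal, chr10:58915626-58915826: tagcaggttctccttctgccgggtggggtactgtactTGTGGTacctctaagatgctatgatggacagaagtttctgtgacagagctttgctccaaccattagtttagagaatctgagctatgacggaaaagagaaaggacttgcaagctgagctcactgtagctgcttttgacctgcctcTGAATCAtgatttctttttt
Tmem94 -24.2 kb, luminal, chr11:115741132-115741332: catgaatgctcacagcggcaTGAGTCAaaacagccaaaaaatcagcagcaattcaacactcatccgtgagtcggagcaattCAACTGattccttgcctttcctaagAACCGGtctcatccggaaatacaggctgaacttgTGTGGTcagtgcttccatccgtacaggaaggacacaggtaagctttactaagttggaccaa

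The libraries held from 1821942 counts in peaks (a basal TEB library) to 9986384 (a basal duct library), and the basal TEB libraries were the shallowest. The basal TEB libraries also had 7.03% to 16.2% of their counts in peaks over repeats (soft-masked over more than 50% of their bases), against 2.40% to 7.21% in the others. Levels are given as CPM, the usual count relative to the total of a library, here its counts in peaks, scaled by TMM factors over the 11 libraries. Of the basal markers, 8 of 8 promoters were higher in basal duct and 7 in basal TEB cells, and 5 and 6 of 8 luminal markers were lower there. Of the main (highest) promoter peaks of all 14886 genes with one, 43.2% were higher and 11.1% lower in basal duct cells. In basal TEB cells these shares were 9.32% and 14.9%. Promoters of fibroblast markers were higher too, in 5 of the 5 measured in ducts and 4 in TEBs, with a summed level of 139.4 to 158.5 CPM in basal duct, 64.9 to 87.3 in basal TEB and 20.2 to 24.7 in luminal libraries, although Col1a1 and Lum had no promoter peak. Of 6 endothelial markers Kdr and Sox18 had a promoter peak and both were higher in basal cells, with a sum of 17.6 to 28.7 CPM in basal and 4.45 to 7.57 in luminal libraries. Of 10 Schwann and nerve markers 6 were measured. In basal duct cells 3 of them were higher, near the share over all main promoters, with Sox10 at 12.7 CPM against 1.98. In basal TEB cells 2 were higher, while Mbp, of myelin, was lower in both basal groups (log2 fold change -0.53 and -1.01). The part of other cells in the values below was not tested, and in these bulk samples more cells with an open site cannot be told apart from a more open site in each cell.

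The promoter of Sh3tc2 was the most unequal of the set, 15.1 times as open in basal as in luminal duct cells and 8.46 times in TEBs. Its peak lay at the only annotated start site of a protein-coding transcript and reached 72.8 and 66.2 CPM in basal duct replicates 1 and 3. The basal TEB libraries were at 41.9, 69.3 and 48.3 CPM, the luminal duct libraries at 5.94, 4.66 and 3.22, and the luminal TEB libraries at 7.68, 4.92 and 6.26. Every basal library was thus far above every luminal library, and the basal TEB libraries spread the most. A ranking rebuilt from these data held all members but Tns3 in its first 6 places in ducts or in TEBs. It also held genes there that are not members, such as Acta2. In this ranking Sh3tc2 was first of 329 promoters in TEBs (log2 fold change 3.08, SE 0.28) and was below the level asked for in ducts. The duct libraries are therefore used for its test, which holds as independent only if the choice was made in that way, and this is not known. There the log2 fold change was 3.85 (SE 0.25, n = 2 and 3) with an adjusted p of 2.3e-80 by the exact test of edgeR. In ducts 43.2% of the main promoter peaks of all 14886 genes with one passed this test (false discovery rate 0.05) toward basal cells and 11.1% toward luminal cells.

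Lrrc4c had no peak at its upstream start site, and its promoter peak lay at an internal one, 1148.7 kb downstream. There the basal duct libraries were at 58.9 and 52.7 CPM, the basal TEB libraries at 29.1, 48.9 and 35.0, the luminal duct libraries at 14.4, 9.89 and 12, and the luminal TEB libraries at 6.86, 10.4 and 8.56. The lineages did not overlap, with basal TEB replicate 1 the lowest basal and luminal duct replicate 1 the highest luminal library. By the same ranking it was taken as chosen in TEBs (log2 fold change 2.14, SE 0.28). In ducts the log2 fold change was 2.15 (SE 0.17), with an adjusted p of 1.1e-32 by the same exact test. That test holds as independent only on the same condition. The duct value was above the 2.11 of rank 7 in ducts. Only its level, a mean log2 CPM of 4.42 against the 4.51 asked for, kept Lrrc4c out of that ranking.

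Tmem94, Hs3st3a1 and Sh3rf3 were among the first 6 of that ranking in ducts and not in TEBs, so the TEB libraries give their test, on the same condition. In ducts their log2 fold changes were 2.34 (SE 0.10), 2.31 (SE 0.16) and 2.19 (SE 0.18), ranks 1, 5 and 6 of 2198 promoters. The last value inside the first 6 was that of Sh3rf3 and the first outside was Klhl29 at 2.11, and in TEBs the same places were held by Acta2 at 1.90 and Map9 at 1.83. All 3 promoters passed the test in TEBs as well, toward basal cells, where 9.32% of main promoters passed in that direction and 14.9% toward luminal cells.

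The larger of the Tmem94 promoter peaks lay at an internal start site, 11.4 kb into the gene. It read 76.5 and 68.6 CPM in basal duct, 31.7, 39.5 and 38.6 in basal TEB, 13.8, 14.7 and 12.5 in luminal duct, and 17.6, 15.6 and 13.8 in luminal TEB libraries. The basal TEB values lay between those of basal duct and the luminal groups and overlapped neither, with a log2 fold change of 1.23 in TEBs (SE 0.15, edgeR exact test, adjusted p = 1.3e-05). The peak at the upstream start site was lower and less unequal, at 12 to 34.2 CPM in basal and 10.6 to 15.5 in luminal libraries, so that the lineages overlapped, and it did not pass in TEBs (log2 fold change 0.48, SE 0.29, adjusted p = 0.21).

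Hs3st3a1 had a single start site, whose peak also covers the start of the opposite gene F930015N05Rik, so the peak cannot be given to either gene alone. Its libraries read 70.4 and 56.8 CPM in basal duct, 41.9, 43.8 and 33.2 in basal TEB, 13.6, 11.6 and 11.8 in luminal duct, and 10.2, 13.1 and 12.2 in luminal TEB. The lineages did not overlap in either structure. In TEBs the log2 fold change was 1.75 (SE 0.16), with an adjusted p of 5.9e-10 by the edgeR exact test.

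Of the 3 main promoters tested in TEBs, that of Sh3rf3 was closest to the luminal level. It read 68.7 and 54.4 CPM in basal duct, 16.9, 35.6 and 30.6 in basal TEB, 12.3, 11.9 and 14.6 in luminal duct, and 12.9, 12.8 and 15.1 in luminal TEB libraries. Basal TEB replicate 1 was only just above the highest luminal library. The TEB log2 fold change of 1.04 (SE 0.35) passed the edgeR exact test with an adjusted p of 0.0018.

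Tns3 did not bear out the description of a strongly basal promoter. Its promoter peak read 26.9 and 22.8 CPM in basal duct, 13.8, 11.7 and 7.98 in basal TEB, 13.6, 9.33 and 9.03 in luminal duct, and 7.13, 10.7 and 9.55 in luminal TEB libraries. Basal TEB libraries overlapped the luminal ones, and the basal duct libraries alone stood apart. The log2 fold change was 1.17 (SE 0.21) in ducts and 0.29 (SE 0.26) in TEBs, and the peak was below the median promoter in level, so it ranked in neither contrast. Because the origin of its choice is not known, no test is given for its lineage differences.

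**Figure D1:**
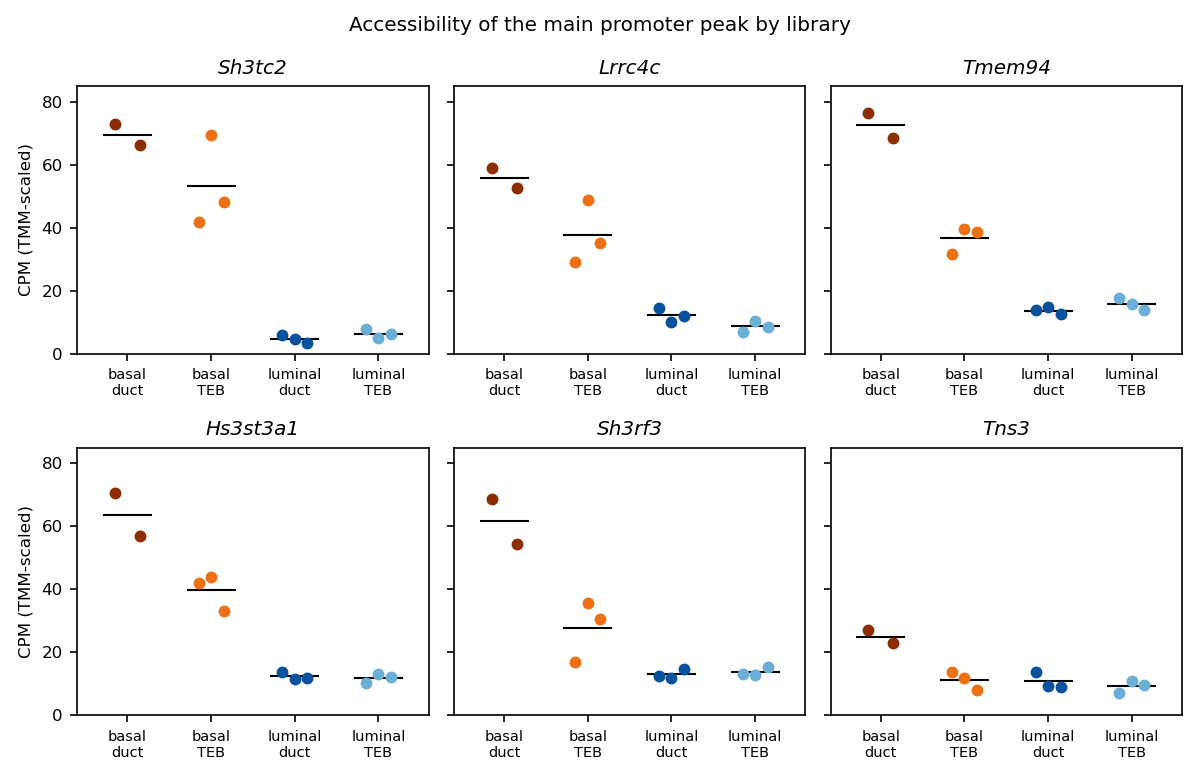
CPM of the main promoter peak of each gene (y axis, linear, TMM-scaled) in the 11 libraries, by group on the x axis; points are libraries and bars group means. In 5 of the 6 genes every basal library lies above every luminal library, while the basal TEB libraries of Tns3, at 7.98 to 13.8 CPM, overlap the luminal ones.

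Outside promoters the loci split into 3 kinds: a basal promoter in a locus whose remainder overlapped between the lineages (Sh3tc2), a locus with mostly basal peaks in ducts (Tmem94, Hs3st3a1), and a locus of mixed peaks whose sum was higher in basal cells (Sh3rf3, Lrrc4c, Tns3). The kinds were named after the values were seen. In the libraries that the rebuilt ranking did not use for these genes, 8 of the 26 peaks outside the promoters of Sh3tc2 and Lrrc4c were higher in basal duct (30.8%) and 8 (30.8%) in luminal duct cells. Over all peaks outside promoters these shares were 30.3% and 39.6%, so these loci held basal peaks about as often as the genome did. With TMM factors from TSS peaks the split was 5 and 9, with DESeq2 4 and 8, and without basal duct replicate 3 it was 5 toward basal cells. In TEBs 13 of the 41 peaks outside the promoters of Tmem94, Sh3rf3 and Hs3st3a1 were higher in basal cells (31.7%) and 5 in luminal cells (12.2%), against 17.4% and 21.5% of all peaks outside promoters. Their median log2 fold change in TEBs was 0.73, against -0.06 over all such peaks. The 5 fell to 3 without basal TEB replicate 2, with DESeq2 and under 3 other settings.

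**Figure D2:**
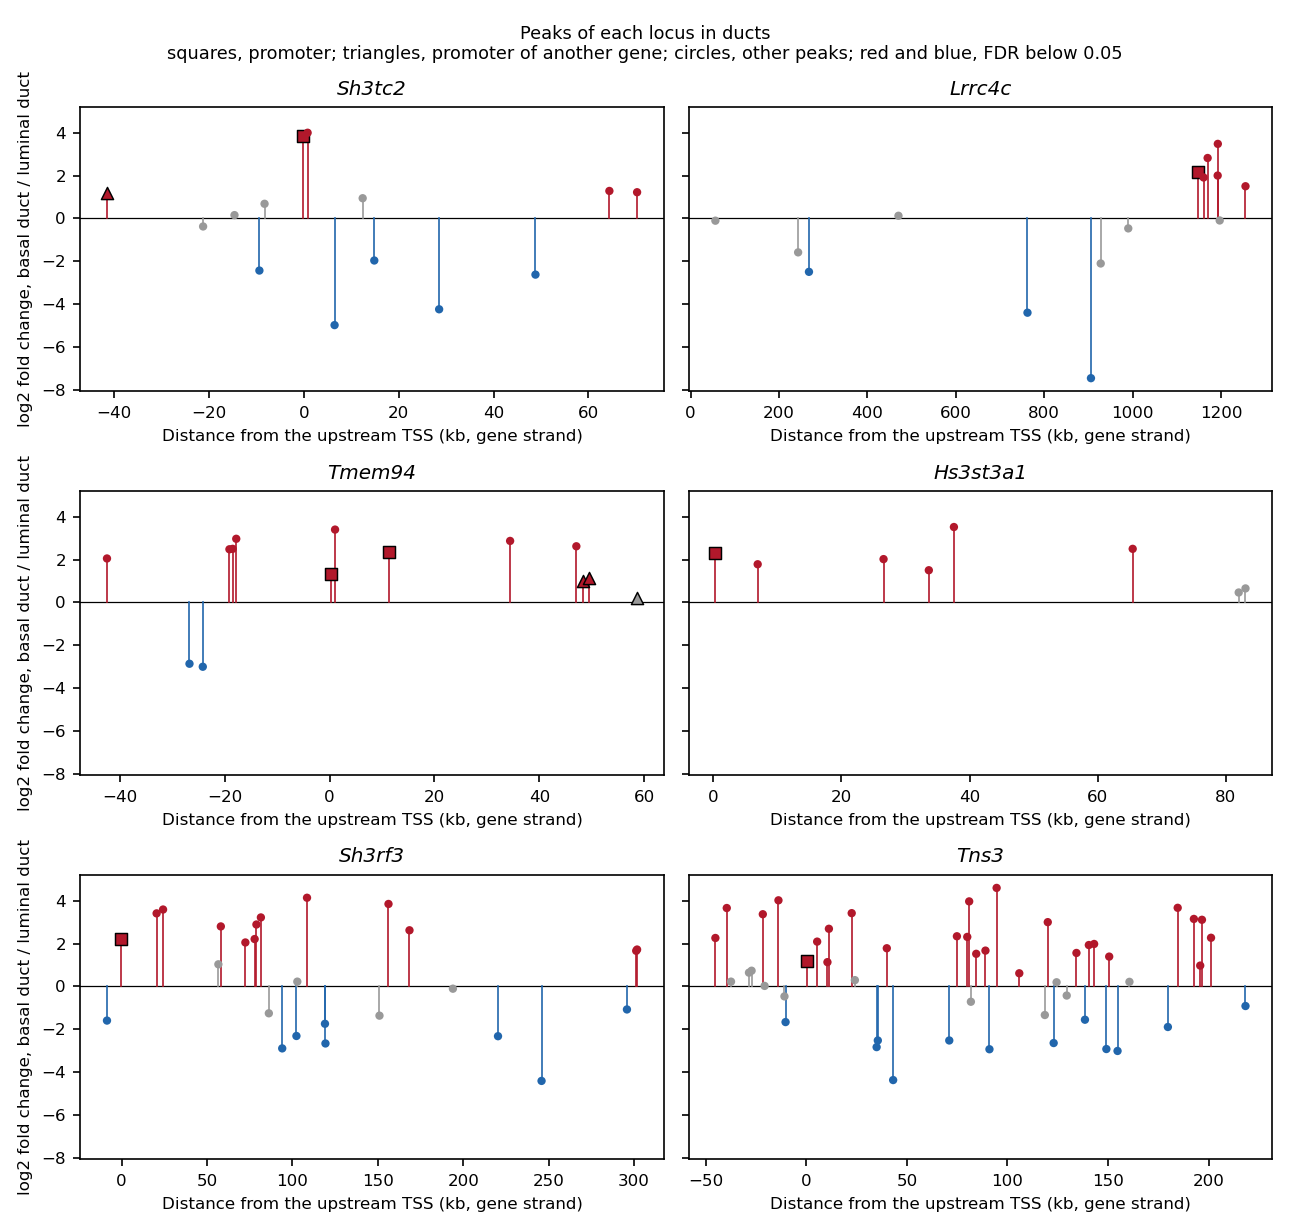
Log2 fold change of basal against luminal duct libraries (y axis) for each peak of the 6 loci by its distance in kb from the upstream TSS (x axis, gene strand). Squares are promoter peaks, triangles promoters of other genes, circles other peaks, and red or blue marks a false discovery rate below 0.05. Hs3st3a1 has 5 red and no blue circles, Sh3tc2 3 red and 5 blue, and Tns3 26 red and 12 blue. Over all peaks outside promoters 30.3% were higher in basal and 39.6% in luminal duct cells.

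At Sh3tc2 the promoter was the exception in its locus. Summed over the 12 peaks outside promoters, the locus read 24.3 to 33.7 CPM in basal and 22.7 to 31.8 CPM in luminal libraries, so the lineages overlapped. The ratio of basal to luminal means was 0.875 in ducts and 1.26 in TEBs, and 0.673 and 1.04 once peaks within 2.5 kb of the start were counted with the promoter. Of the 3 peaks higher in basal duct cells, the strongest call was at +0.8 kb, beside the promoter peak. It read 5.01 and 7.09 CPM in basal duct and 0.215 to 0.424 in luminal duct libraries (log2 fold change 4.0, SE 0.28, edgeR adjusted p = 2.7e-14). The luminal duct counts there were 2, 2 and 1, and the SE, from log2 CPM at prior count 2, is too small for so few reads.

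Of the 12 Sh3tc2 peaks outside promoters 5 were higher in luminal duct cells (41.7%, against 39.6% of all such peaks). In basal duct cells 3 were higher (25%, against 30.3%). Inside the gene 4 of 8 peaks were higher in luminal duct cells. The one with the smallest p, at +48.8 kb, read 1.14 and 0.770 CPM in basal duct, 7, 6.16 and 4.51 in luminal duct, 1.02 to 1.77 in basal TEB and 3.55 to 6.59 in luminal TEB libraries. The lineages did not overlap there, with a log2 fold change in ducts of -2.63 (SE 0.27, edgeR exact test, adjusted p = 1.3e-09). The highest peak outside the promoter by mean log2 level over the 11 libraries, at -21.2 kb, was no higher than 6.65 CPM in any library and did not pass (log2 fold change -0.38, SE 0.33, adjusted p = 0.33 by edgeR). The nearest promoter of another gene, Ablim3, at -41.5 kb, was higher in basal duct cells (12.7 against 5.36 CPM on average, log2 fold change 1.17, SE 0.30, edgeR adjusted p = 7.4e-06).

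Outside its promoter the Lrrc4c locus summed to 22.4 to 43 CPM in basal and 11.9 to 22.2 CPM in luminal libraries, 1.46 times as high in basal duct and 1.97 times in basal TEB cells. The lineages did not overlap, but with scaling by total counts alone they did (19.7 to 47.5 against 11.5 to 23.3 CPM). Of its 14 peaks outside the promoter 5 were higher in basal (35.7%) and 3 in luminal duct cells (21.4%). Over all such peaks these shares were 30.3% and 39.6%. The locus changed with position. Downstream of the promoter peak 5 of 6 peaks were higher in basal duct cells and none in luminal ones, while upstream, over the long first part of the gene, 0 of 8 were higher in basal and 3 in luminal duct cells, a division made after the values were seen. The strongest peak, at +1160.6 kb, read 11.3 and 12.3 CPM in basal duct, 2.12, 2.99 and 3.87 in luminal duct, 9.20, 19.6 and 14.6 in basal TEB and 4.67, 4.64 and 5.60 in luminal TEB libraries. It was higher in every basal library, with a log2 fold change in ducts of 1.91 (SE 0.24, edgeR adjusted p = 9.2e-11). At +905.8 kb both basal duct libraries had a count of 0, which allows up to 0.342 and 0.462 CPM (3 counts per library), and the luminal duct libraries read 2.97, 3.54 and 4.3 CPM, at least 8.96-fold higher (edgeR adjusted p = 1.1e-10). Of the 8 upstream peaks 5 lay over repeats.

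Around Tmem94 the peaks outside promoters were basal in ducts, with 2 exceptions, and 8 of the 9 lay in the flanks and not inside the gene. In ducts, where the gene was chosen, 7 of its 9 peaks outside promoters were higher in basal cells (77.8%, against 30.3% of all such peaks). Their summed level was 3.89 times as high in basal duct cells over the 9 peaks, close to the 4.01 of its promoters. In TEBs the sum was 35.8 to 51.0 CPM in basal and 23.0 to 25.2 in luminal libraries. There 4 of 9 peaks passed toward basal cells (44.4%) and 2 toward luminal cells (22.2%). Over all peaks outside promoters these shares were 17.4% and 21.5%. The strongest TEB call was at +34.4 kb, inside the body of the neighbouring gene Caskin2, with 11.2, 11.3 and 8.42 CPM in basal TEB against 2.47, 1.64 and 0.659 in luminal TEB libraries (log2 fold change 2.63, SE 0.38, edgeR adjusted p = 1.0e-07).

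Both luminal peaks at Tmem94 lay upstream of the gene. The one at -24.2 kb, whose centre is printed above, read 0.570 and 0.616 CPM in basal duct, 1.02, 0.783 and 1.33 in basal TEB, 4.24 to 5.04 in luminal duct and 7.68, 7.92 and 10.5 in luminal TEB libraries. Its log2 fold change in TEBs was -3.01 (SE 0.19, edgeR adjusted p = 1.8e-07), and no basal library reached a luminal one. The basal TEB counts there were 2, 2 and 3, and such an SE is too small for so few reads. The highest peak by mean log2 level, at -42.5 kb, was a basal one (8.42 to 9.71 against 2.96 to 4.12 CPM in TEBs, log2 fold change 1.39, SE 0.12, edgeR adjusted p = 0.0022). Promoters of the neighbours Caskin2, Tsen54 and Llgl2 made up 3 peaks within 50 kb. In ducts 2 of the 3 were higher in basal cells (66.7%, against 43.2% of all main promoters), with a median log2 fold change of 1.01 over the 3. None of the 3 passed in TEBs, where their log2 fold changes ran from -0.06 to 0.21.

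Hs3st3a1 had no luminal peak by the test. Of its 7 peaks outside the promoter, all inside the gene, 5 were higher in basal duct cells (71.4%, a description, since the gene was chosen there). In basal TEB cells 2 were higher (28.6%), and none was higher in luminal cells in either structure. Over all peaks outside promoters 30.3% were higher in basal duct and 17.4% in basal TEB cells. Toward luminal cells these shares were 39.6% and 21.5%. The summed level was 4.14 times as high in basal duct and 2.32 times in basal TEB cells, at 27.0 to 44.2 against 11.7 to 17.3 CPM in TEBs. The peak at +37.6 kb carried the TEB difference, with 16.9, 17.6 and 10.6 CPM in basal against 3.02, 2.19 and 1.65 in luminal TEB libraries (log2 fold change 2.68, SE 0.29, edgeR adjusted p = 3.2e-10). The other TEB call, at +26.6 kb, was at 4.09 CPM or less in every library. The highest peak by mean log2 level, at +33.6 kb, gave 4.09 to 14.1 CPM in basal and 3.95 to 7.38 in luminal TEB libraries and did not pass (log2 fold change 0.73, SE 0.54, edgeR adjusted p = 0.17).

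Sh3rf3 held strong peaks of both kinds inside its body. The basal peak at +108.6 kb read 23.4 and 22.3 CPM in basal duct, 9.71, 21.9 and 16.4 in basal TEB, 1.48, 1.49 and 0.645 in luminal duct and 0.549, 0.820 and 2.31 in luminal TEB libraries. The luminal peak at +102.4 kb read 2.51 and 2.31 CPM in basal duct, 1.53, 0.783 and 0.443 in basal TEB, 13.4, 9.14 and 12.7 in luminal duct and 11.5, 10.9 and 13.2 in luminal TEB libraries. Neither overlapped between the lineages. In TEBs the log2 fold changes were 3.74 (SE 0.52, edgeR adjusted p = 6.2e-14) and -3.67 (SE 0.28, adjusted p = 4.3e-11). Over the 25 peaks outside the promoter, 7 were higher in basal TEB cells (28%) and 3 in luminal TEB cells (12%). Over all peaks outside promoters these shares were 17.4% and 21.5%. The summed level was 1.53 times as high in basal TEB cells and 1.59 times in ducts, against 4.75 times for the promoter in ducts.

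Tns3 carried its basal signal away from the promoter. Its 49 peaks outside the promoter summed to 321.0 to 548.5 CPM in basal and 159.6 to 190.2 CPM in luminal libraries, 2.86 times as high in basal duct and 2.11 times in basal TEB cells, while the promoter peak held 2.14% to 7.10% of the counts of the locus in any library. The peak at +94.6 kb, inside the gene, was the strongest, at 92.5 and 72.9 CPM in basal duct, 35.3, 73.2 and 50.1 in basal TEB, 4.03, 3.54 and 2.15 in luminal duct and 3.57, 2.19 and 6.26 in luminal TEB libraries. It was above each of the 6 main promoters in the mean of basal duct libraries, at 82.7 CPM, and made up 14.1% of the basal TEB level outside the promoter. Its log2 fold changes were 4.60 in ducts (SE 0.30) and 3.75 in TEBs (SE 0.49).

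Luminal peaks stood among the basal ones at Tns3 too. At +91.0 kb, close to the strongest basal peak, the basal libraries read 0 to 1.57 CPM, the luminal duct libraries 7.42, 6.90 and 4.73, and the luminal TEB libraries 8.51, 2.19 and 2.96. The highest peak by mean log2 level, at +195.9 kb, was open in all groups, with means of 35.2, 25.2, 17.2 and 16.4 CPM in basal duct cells, those of basal TEBs, and the luminal cells of ducts and of TEBs. Of the 49 peaks, 26 were called toward basal (53.1%) and 12 toward luminal cells (24.5%) in ducts, against 30.3% and 39.6% of all peaks outside promoters. In TEBs 15 (30.6%) and 5 (10.2%) were called, against 17.4% and 21.5%. These counts are a description here. Toward luminal TEB cells the smallest p belonged to the peak at +154.7 kb, with 0 to 3.07 CPM in basal TEB and 4.67 to 9.29 CPM in luminal TEB libraries.

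**Figure D3:**
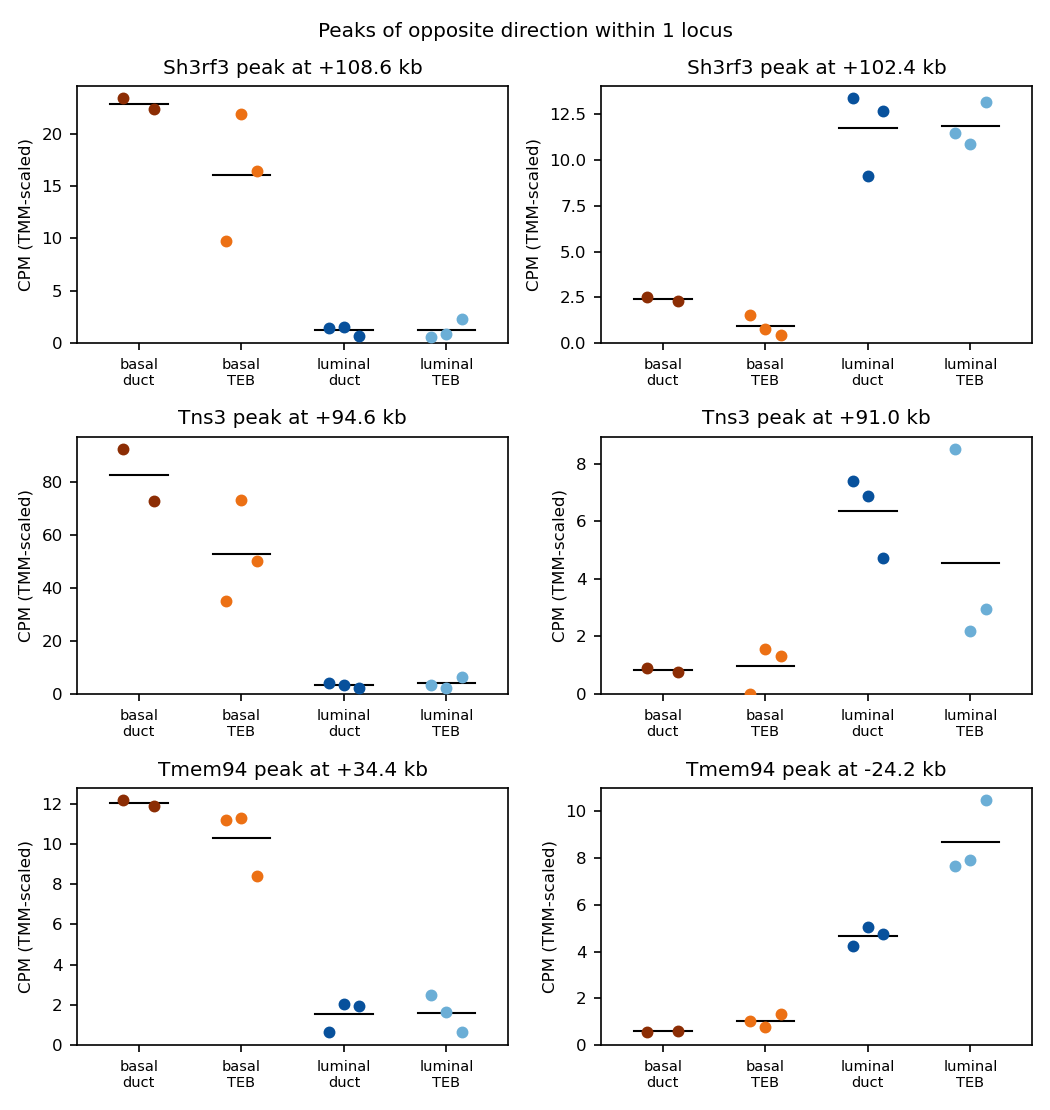
CPM (y axis, linear, a scale for each panel) in the 11 libraries by group (x axis) for a basal peak (left) and a luminal peak (right) of Sh3rf3, Tns3 and Tmem94; points are libraries and bars group means. The 2 Sh3rf3 peaks exchange their order between the lineages, at means of 22.8 and 2.41 CPM in basal duct and 1.21 and 11.7 CPM in luminal duct cells.

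The share of a locus' counts that fell in its promoter peaks does not depend on the scaling between libraries. At Sh3tc2 the promoter took 55.8% to 75.0% of the counts in basal and 10.3% to 21.6% in luminal libraries, with no overlap. At Tmem94 the shares were 49.8% to 64.1% and 53.6% to 66.0%, and at Hs3st3a1 49.0% to 59.0% and 37.0% to 53.8%, so promoter and remainder moved nearly in step. Lrrc4c lay between, at 44.2% to 72.4% and 23.6% to 54.8%. For Sh3rf3 the basal duct libraries alone stood out, at 48.4% and 41.3%, whereas the basal TEB libraries (18.0% to 31.1%) lay around the luminal ones (19.4% to 24.9%). The 95% Wilson intervals, which cover counting error only, reached at most 10.9 percentage points to a side, at Hs3st3a1.

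**Figure D4:**
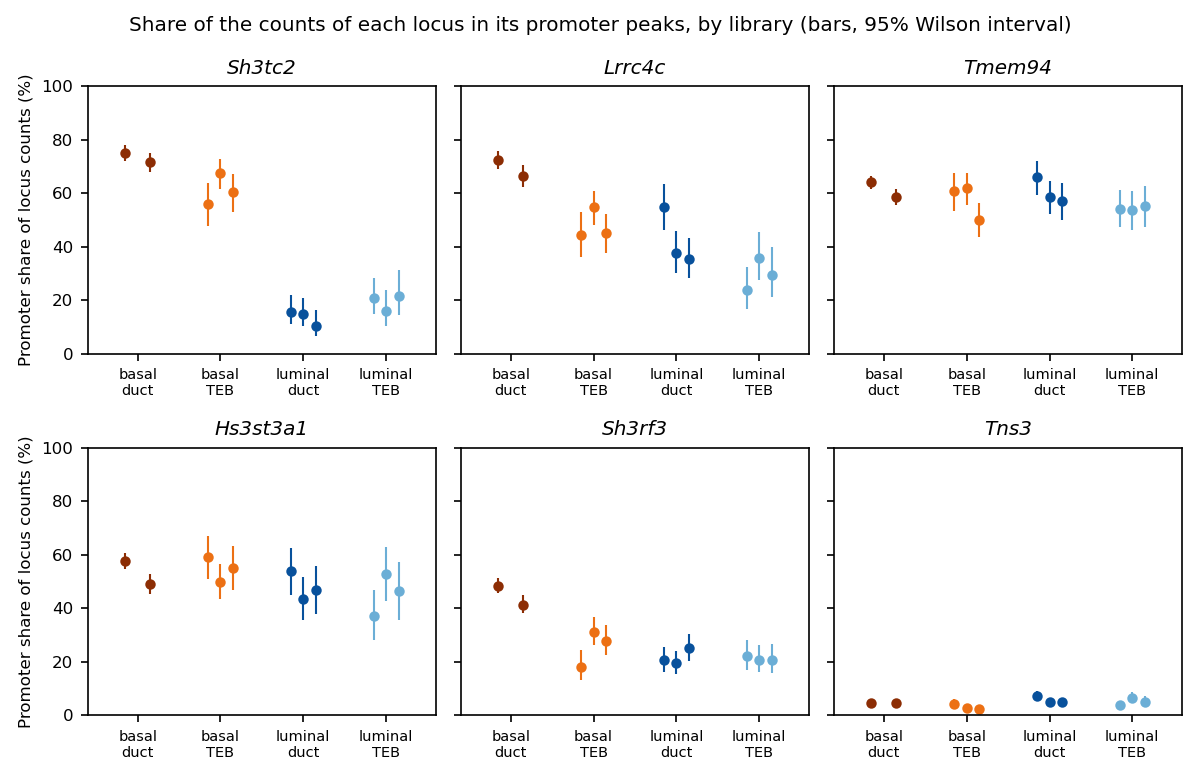
Share of the counts of each locus that lay in its promoter peaks (y axis, percent) in the 11 libraries by group (x axis), with promoters of other genes left out; points are libraries and bars 95% Wilson intervals. Sh3tc2 separates the lineages (55.8% or more against 21.6% or less), and Tmem94 does not.

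Peaks called toward basal duct cells were also wider, and the basal duct libraries were the deepest. The part of depth in these widths and calls was not tested. The 58 of the 116 peaks outside promoters that were called toward basal duct cells had a median width of 464.5 bp and a median level of 6.72 CPM in basal duct cells. The 30 called toward luminal duct cells had a median width of 243.5 bp and reached 3.50 CPM in luminal duct cells, and the 28 with no call had a median width of 215.5 bp. A FOX match (TGTTTAC) was found in 0 of the 58, in 4 of the 30 (13.3%), in 2 of the 28 (7.14%) and in 5.32% of all peak centres outside promoters. An AP-1 match was found in 20 (34.5%), 8 (26.7%) and 4 (14.3%), and in 23.6% of all such centres. A TEAD match was found in 16 (27.6%), 7 (23.3%) and 7 (25%), and in 16.5% of all such centres. The members were chosen partly on these libraries, so the motif shares are a description.

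Every basal library was above every luminal one in 35 of the 116 peaks outside promoters and every luminal above every basal one in 15, where 14.1% and 20.8% of all such peaks did so. These 35 included 19 of Tns3, 6 of Sh3rf3, 4 of Tmem94 and 2 each of Sh3tc2, Lrrc4c and Hs3st3a1. In 30 of the 116 peaks both structures were called toward basal cells and in 13 both toward luminal cells. Over all peaks outside promoters these shares were 12.9%, which is lower than here, and 19.4%, which is higher. Of the 116 peaks 1 was called in opposite directions, Sh3rf3 at +220.4 kb.

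Between TEBs and ducts the basal cells differed at these peaks about as often as at all peaks outside promoters. Of the 116 outside promoters, 7 were higher in basal TEB (6.03%, against 9.14% of all such peaks). In basal duct cells 11 were higher (9.48%, against 7.03%). The 7 were 4 of Lrrc4c and 3 of Sh3rf3, and 6 of them lay wholly in repeats, the kind of peak that took the larger shares of the basal TEB libraries. The exception, Sh3rf3 at +72.5 kb, averaged 7.02 CPM in basal TEB and 2.45 in basal duct cells (log2 fold change 1.56, edgeR adjusted p = 0.019). With TMM factors from TSS peaks the split was 13 and 2, with GC-bin offsets 10 and 3, without basal duct replicate 1 it was 1 and 0, and without replicate 3 it was 1 and 3. The second number was 18 without basal TEB replicate 2 and 7 without replicate 3.

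Of the 11 peaks higher in basal duct cells 7 were of Tns3. At +192.7 kb the basal duct libraries read 24.0 and 21.6 CPM and the basal TEB libraries 6.13, 7.04 and 7.09, with no overlap (log2 fold change of TEB against duct -1.75, SE 0.12, edgeR adjusted p = 2.0e-05). At +10.4 kb the means were 23.0 and 6.82 CPM (log2 fold change -1.76, adjusted p = 2.6e-05 by edgeR). The other 4 were 2 of Tmem94, Sh3rf3 at +301.8 kb (-1.29, adjusted p = 0.04) and Hs3st3a1 at +82.0 kb (-2.19, adjusted p = 0.021), and Sh3tc2 and Lrrc4c had none. The Sh3rf3 call was lost in 10 of 12 alternatives and the Hs3st3a1 call in 6 of 11, among them DESeq2 and the fits without either basal duct replicate or without basal TEB replicate 1 or 3. The promoters, described without a test since they share these libraries with the choice, had log2 fold changes of -0.38 for Sh3tc2, -0.56 for Lrrc4c, -0.68 for Hs3st3a1, -0.98 for Tmem94, -1.14 for Sh3rf3 and -1.16 for Tns3, beside a median of -0.65 over all main promoters. TMM factors from TSS peaks shifted this comparison by 0.66 and gave 0.27 for Sh3tc2 and 0.09 for Lrrc4c, and GC-bin offsets gave 0.07 for Hs3st3a1, so no direction is given for these 3.

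In luminal cells the comparison of TEBs and ducts gave 0 calls either way at the 116 peaks by the edgeR exact test, against 0.335% and 0.357% over all peaks outside promoters. At an unadjusted p under 0.05 there were 5 and 4, and DESeq2 and the edgeR quasi-likelihood test gave 0 and 0, while filterByExpr gave 1 toward TEBs. At some peaks the libraries of the structures did not overlap although no call was made. An example is Tmem94 at -24.2 kb, at 7.68 to 10.5 CPM in luminal TEB and 4.24 to 5.04 in luminal duct libraries. There the log2 fold change was 0.88 (SE 0.15, edgeR exact test, adjusted p = 0.11). The main promoters lay between -0.49 (Lrrc4c) and 0.44 (Sh3tc2) on the log2 scale.

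The lineage difference depended on the structure at 7 of the 87 peaks outside promoters with enough counts for the interaction test. The log2 difference of basal against luminal cells shifted toward basal cells in TEBs at 2 peaks (2.3%, against 8.44% of all such peaks). It shifted the other way at 5 (5.75%, against 5.41% of all such peaks), by the quasi-likelihood test of edgeR. Of the 5, 4 were of Tns3, and at -13.9 kb the basal libraries averaged 20.9 CPM in ducts and read 7.53 to 13.3 CPM in TEBs while the luminal ones averaged 1.2 and 3.29 CPM (interaction -2.39 on the log2 scale, adjusted p = 0.0019 by edgeR). The 2 lay wholly in repeats, and there the log2 difference changed sign between the structures. It was -2.11 in ducts and 1.93 in TEBs at Lrrc4c +927.8 kb, and -2.33 and 2.02 at Sh3rf3 +220.4 kb. DESeq2 gave 2 and 2, and TMM factors from TSS peaks 4 and 2, and GC-bin offsets 3 and 3. The 2 fell to 1 without basal duct replicate 1 or 3, basal TEB replicate 1 or 3 or luminal duct replicate 2, and became 6 without basal TEB replicate 2. The 5 fell to 2 without basal duct replicate 1, luminal duct replicate 1 or 2 or luminal TEB replicate 1, and to 3 without basal duct replicate 3 or luminal TEB replicate 3. Promoters had interaction values of -1.13 for Sh3rf3, -1.11 for Tmem94, -0.87 for Tns3, -0.75 for Sh3tc2, -0.55 for Hs3st3a1 and 0.00 for Lrrc4c, beside a median of -0.42 over main promoters.

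The promoters whose levels followed those of the members most closely over the 11 libraries were sought among 7443 promoters above the median level. For Sh3tc2 they were Tmem132a (Pearson r = 0.981), Ciart and Aldh7a1, for Lrrc4c Nrg1 (0.987), Map9 and Fam117a, and for Tmem94 Phldb1 (0.984), Cavin1 and Gm29609. Inka2 (0.983), Itgb8 and Phldb1 were nearest to Hs3st3a1, and Ldhb (0.979), Synj2 and Col9a2 to Sh3rf3. For Tns3 they were Gm49711 (0.977), Zc3h13 and C2. All 11 points share the lineage and structure groups, so such values are a description. Among the members, the first 5 correlated with each other at 0.875 to 0.975 and Tns3 with them at 0.593 to 0.751.

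Relatives of the members shared part of the pattern. Of 16 listed genes of the same families or their ligands 11 had a promoter peak, of which 8 were higher and 0 lower in basal duct cells, and 6 higher and 2 lower in basal TEB cells (median log2 fold change 1.46 and 0.97, against 0.30 and -0.09 over all main promoters). Over all main promoters 43.2% were higher and 11.1% lower in basal duct cells, and 9.32% and 14.9% in basal TEB cells. Both netrin-G genes were higher in basal cells. In ducts Ntng1 read 36.1 against 12.5 CPM (log2 fold change 1.46, SE 0.12, edgeR adjusted p = 6.1e-15) and Ntng2 36.9 against 5.03 CPM (2.81, SE 0.12, adjusted p = 2.0e-39). Hs3st3b1, the close relative of Hs3st3a1, was higher in ducts (1.61, SE 0.22, edgeR adjusted p = 2.2e-18) and in TEBs (1.70, SE 0.31, adjusted p = 1.2e-07), as was Hs3st5. Tns4 was higher in both (2.18 and 2.25), while Tns1 passed in ducts (1.45) and did not pass in TEBs (-0.07), and that difference was not tested. Sh3rf1 and Sh3tc1 were the 2 that were lower in basal TEB cells.

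Of 24 genes that make, cut or carry heparan sulfate, 15 were higher in basal duct cells and 0 lower, and 5 were higher and 1 lower in basal TEB cells. Their median log2 fold changes were 0.58 and 0.14, against 0.30 and -0.09 over all main promoters. Of all main promoters 43.2% were higher and 11.1% lower in basal duct cells, and 9.32% and 14.9% in basal TEB cells. Sulf1, which removes 6-O-sulfates, had the largest difference of the list, at 32.2 against 3.14 CPM in ducts and 22 against 2.1 in TEBs (log2 fold change 3.30 and 3.36, SE 0.11 and 0.24, edgeR adjusted p = 7.9e-44 and 3.9e-17). The 6-O-sulfotransferases Hs6st2 and Hs6st3 and the glypicans Gpc3 and Gpc6 were the others higher in both, with duct values of 2.70, 1.74, 1.99 and 1.49, and Extl2 was lower in basal TEB cells (-0.98). Of 24 measured genes of focal adhesions, where tensins act, 9 were higher and 2 lower in basal duct cells and 1 higher and 3 lower in basal TEB cells, with medians of 0.18 and -0.14, so basal calls were no more frequent there than over all main promoters. Cav1, of caveolae, was the one higher in both (1.73, SE 0.16, and 1.19, SE 0.29), and Pxn, the adaptor paxillin, was lower in both (-0.34 and -1.17).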

How the data were processed

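The deposited files hold raw read counts per merged peak and library. The authors mapped reads to mm10 with Bowtie2 (2.3.4.3 per the labels), called peaks with MACS2 on pooled replicates of each population, merged them and counted in SeqMonk, so a peak need not be present in every library. Peaks were annotated with GENCODE vM21 (GRCm38). Pairs of groups were tested over all peaks with a count by the exact test of edgeR 4.0.16 (R 4.3.3, TMM, Benjamini-Hochberg, false discovery rate 0.05), and the interaction by its quasi-likelihood test over 11 libraries after filterByExpr. SEs between libraries used log2 CPM at prior count 2, which damps low counts. At peaks with few counts they are therefore too small for the edgeR fold change they stand beside. The code was tested on simulated counts. Members, lists and the rule for named peaks (each gene's promoter peaks, its highest other peak, and the smallest p in each direction) were chosen with earlier results of these data known. A ranking for the choice was rebuilt as the first 6 promoters by log2 fold change that passed the test, did not overlap between groups and lay above the median level. It yields all members but Tns3, along with genes that are not members. Alternatives were DESeq2 1.42.0, quasi-likelihood tests, other filters, scalings and distances, and leaving out each library. Replicates came from separate mouse pools, but no label ties a number to a pool across groups and libraries of the same number did not deviate together (correlations of -0.035 to 0.095), so they were not paired.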

Additional observations from a re-analysis of the deposited data

Results flagged for a closer look

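The lineage difference depended on the structure, by the interaction test of edgeR's quasi-likelihood fit, at 7 of the 87 peaks outside promoters that were tested. The shift was toward basal cells in TEBs at 2 of them (2.3%, against 8.44% of all such peaks). It went the other way at 5 (5.75%, against 5.41%). At Lrrc4c +927.8 kb (interaction 4.04 on the log2 scale) and Sh3rf3 +220.4 kb (4.35) the log2 difference changed sign between the structures. It was -2.11 and -2.33 in ducts and 1.93 and 2.02 in TEBs. Both peaks lie wholly in repeats, and basal TEB replicate 1, the library with the largest repeat share (16.2%), was the highest, at 7.67 and 16.4 CPM. At Tns3 the difference was smaller in TEBs at +192.7 kb (-1.96), +84.5 kb (-1.44), +10.4 kb (-1.13) and -13.9 kb (-2.39). At Tmem94 +47.1 kb, inside Caskin2, it was smaller as well (-1.48), at 14.8 and 16 CPM in basal duct and 7.16, 4.70 and 7.98 in basal TEB libraries. The Tmem94 interaction was past the threshold in 5 of 16 alternatives and short of it in 11. The part of repeats in these values was not tested.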

How the results depend on the processing

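Of the counts of peaks outside promoters, those toward luminal duct and basal TEB cells stayed within 1.5 times of the reported value under every alternative run. The 8 toward basal duct cells became 4 with DESeq2 and 5 under TSS-peak TMM factors, and 5 to 7 with 1 library left out. The 5 toward luminal TEB cells became 3 with DESeq2, 3 with filterByExpr, within the gene body only and at 20 kb in place of 50 kb, and 3 to 5 with 1 library left out. Between basal TEBs and ducts the 7 became 13 with TMM factors from TSS peaks, 1 without peaks over repeats (which takes out 6 of the 7 by construction) and 1 to 8 with 1 library left out. The 11 became 3 with DESeq2, filterByExpr or GC-bin offsets, 2 with TMM factors from TSS peaks, 7 with loess offsets or within the gene body, and 0 to 18 with 1 library left out. In luminal cells the 0 toward TEBs became 1 under filterByExpr and 1 under the TSS-peak factors. The 2 interactions toward basal cells in TEBs became 4 with TMM factors from TSS peaks and 0 without peaks over repeats, which takes out both. They became 1 to 6 with 1 library outside basal duct left out. The 5 in the other direction became 2 with DESeq2 or TMM factors from TSS peaks and 3 with GC-bin offsets or within the gene body. They became 2 to 6 with 1 library outside basal duct left out. With the replicate number as a block, quasi-likelihood tests gave 7 and 8 in the duct contrast, 11 and 5 in TEBs, 7 and 13 in basal cells, 0 and 0 in luminal cells, and 2 and 3 for the interaction, but the libraries share only a number. TMM factors from TSS peaks shifted the median TSS peak by -0.32 in the duct lineage contrast, 0.66 between basal TEBs and ducts and 0.39 in the interaction. The cause of these changes was not tested. The settings without peaks over repeats, with a promoter distance of 2.5 kb and without exon peaks were chosen after seeing the data. No value of a named peak or promoter with a call reversed. Basal TEB libraries had the fewest counts, which limits calls at low peaks there.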
